A study of Mus musculus with 9 samples.

Results

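Molecular chaperones of the heart were examined as a set of 39 genes: 18 of the cytosol, counting the small heat shock proteins, 14 of the endoplasmic reticulum (ER) and 7 of mitochondria. The genes were chosen by their symbols, and each symbol matched 1 probe set in the authors' table, which names 19760 genes by a single symbol. The hearts came from male FVB mice aged 15 weeks, and each of the 3 genotypes had 3 mice, whose whole-heart RNA was hybridised singly to Affymetrix mouse genome arrays. GlycoHi hearts expressed a phosphatase-deficient phosphofructokinase 2 (PFK2), GlycoLo hearts a kinase-deficient PFK2, and wild-type (WT) hearts neither. The protein makes and removes fructose 2,6-bisphosphate, an activator of glycolysis, so the comparisons ask how the chaperone transcripts differ when cardiac glycolysis is set high or low. The sources used here name neither the promoter that drives a transgene nor the number of founder lines.

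Chaperones bind unfolded protein and keep it from aggregating while it folds, is imported or is passed on for degradation. Each compartment has its own set, and their control is only in part separate. Heat shock factor 1 (HSF1) acts on cytosolic genes, among others, when unfolded protein builds up in the cytosol. The sensors ATF6, IRE1 and PERK act on ER genes, and mitochondrial stress raises chaperones and proteases of that organelle. In cardiomyocytes the small heat shock proteins and BAG3 also hold sarcomere proteins in repair, and the transcription factor ATF4, through which PERK and other kinases signal, drives amino acid synthesis genes.

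Levels are log2 intensities from RMA (robust multiarray average), a method that combines the probes of a probe set after quantile normalization, and a level's ± gives the SD of 3 mice. Array medians lay between 4.76 and 4.80, and array pairs correlated at 0.994 to 0.997 across probe sets. All 6 cardiomyocyte markers, among them Myh6 and Tnni3, lay above the array median. Of the 39 chaperone probe sets, 36 lay above the array median too. The listed probe sets of Cryab, Pdia4 and Pdia6 lay below it, at percentiles 10.7, 38.3 and 39.2, so differences in these 3 genes rest on dim signals. The probe sets of Hspb1, Hyou1 and Clpp carry suffixes by which the maker marks probes shared with other transcripts. A whole heart mixes cell types, so fewer cells of a type and less RNA per cell cannot be told apart. Differences were tested with limma over 45037 probe sets, a difference's ± gives the model's SE, and a gene was called at a Benjamini-Hochberg adjusted p under 0.05 over all of them.

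Chaperone levels in both transgenic lines lay mostly below WT, most of all for the HSP70 genes Hspa1a, Hspa1b and Hspa8, and few single genes passed the test. In GlycoHi against WT, 1 of 39 genes was called lower (Hspa8) and 0 higher, where 2.08% of all probe sets were called, 1.00% lower and 1.08% higher. At an unadjusted p under 0.05, 19 were lower and 1 higher, where 7.07% of all probe sets were lower and 7.45% higher. In GlycoLo against WT limma called 0 of the 39, where 0.0844% of all probe sets were called, 0.0688% lower and 0.0155% higher. At an unadjusted p under 0.05, 8 were lower and 0 higher, where 5.07% of all probe sets were lower and 4.41% higher. In GlycoHi against GlycoLo, 1 of 39 was called higher (Lonp1) and 0 lower, where 1.71% of all probe sets were called, 0.957% higher and 0.755% lower. At an unadjusted p under 0.05, 2 were higher and 8 lower, where 6.41% of all probe sets were higher and 6.47% lower. The F-test over the 3 genotypes called Hspa8 alone among the 39 (2.08% of all probe sets). Both comparisons with WT share the same 3 WT arrays, so their common direction is not independent evidence.

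By compartment the medians lay farthest below 0 for the cytosol and nearest to it for mitochondria, a description whose differences were not tested. The median log2 difference of the 18 cytosolic genes was -0.32 in GlycoHi and -0.23 in GlycoLo against WT. For the 14 ER genes it was -0.23 in GlycoHi and -0.07 in GlycoLo, and for the 7 mitochondrial genes it was -0.04 and -0.01. The median over all probe sets was 0.00 in GlycoHi and 0.01 in GlycoLo. Below WT stood 30 of 39 genes in GlycoHi and 31 of 39 in GlycoLo, where 49.9% and 47.6% of all probe sets did so. All 3 GlycoHi hearts lay below all 3 WT hearts for 15 genes and above them for 1, where 8.49% and 9.68% of all probe sets did so. The GlycoLo hearts lay below all WT hearts for 10 genes and above them for 0, where 6.29% and 6.90% did so. Differences over 0.5 in size were all cytosolic, with 6 genes in GlycoHi and 4 in GlycoLo against WT, where 1.39% and 0.488% of all probe sets were as large. Between the lines 25 of 39 genes stood lower in GlycoHi (51.0% of all probe sets), 9 lay below GlycoLo without overlap (8.01%), 3 above it (8.76%), and 0 differed by over 0.5 (1.21%).

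**Figure D1:**
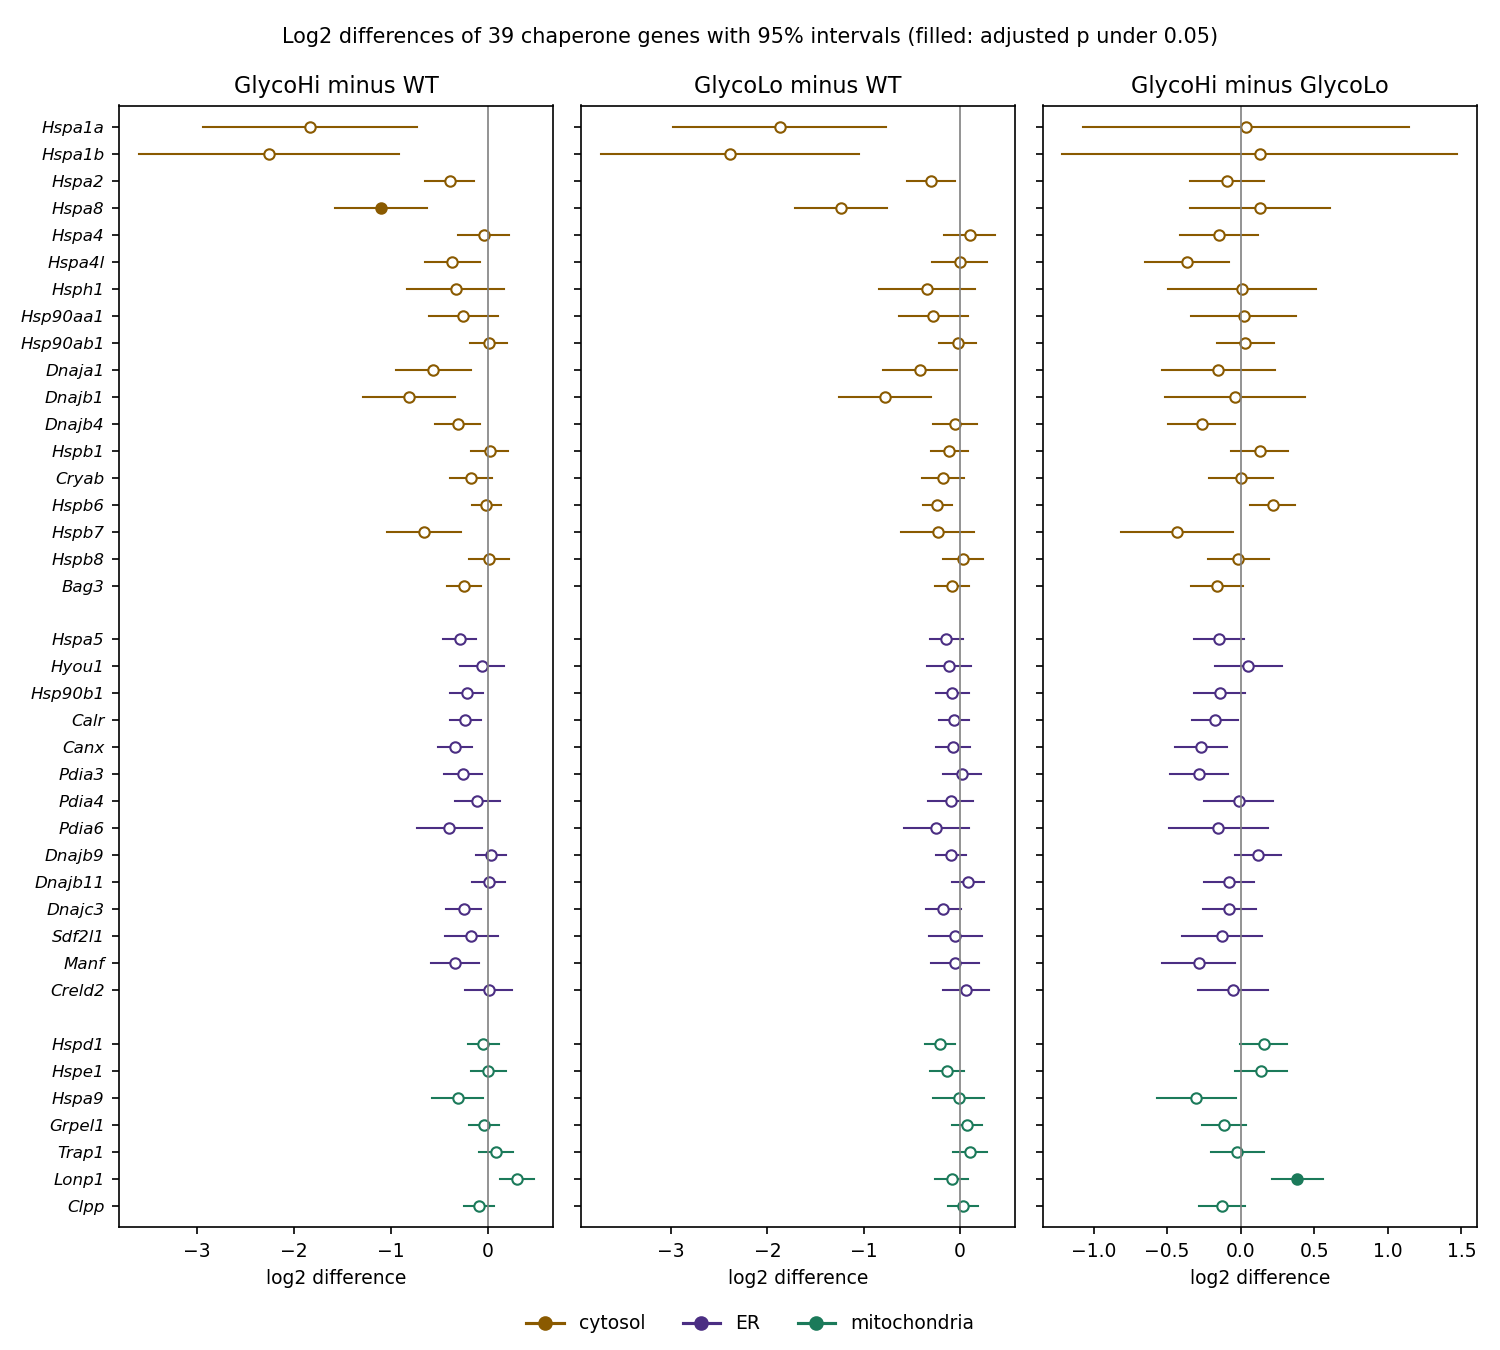
Log2 differences (horizontal axes, a separate scale for GlycoHi minus GlycoLo) of the 39 chaperone genes (rows, grouped by compartment), with 95% intervals from the limma fit; filled points had an adjusted p under 0.05. Hspa1a, Hspa1b and Hspa8 lie farthest to the left in both comparisons with WT, at -2.26 and -2.39 for Hspa1b, while Lonp1 is the filled point between the lines at 0.38.

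Among the HSP70 genes, Hspa8 encodes HSC70, the HSP70 that cells make at all times. Its listed probe set lay only at the 73.5th percentile, where that of Hsp90ab1 lay at the 99.4th. No other probe set of Hspa8 was used, so its values speak for this probe set alone. The level of Hspa8 was 6.59, 5.85 and 6.59 in GlycoHi hearts, 6.10, 6.01 and 6.52 in GlycoLo hearts and 7.27, 7.79 and 7.26 in WT hearts. Every heart of either line lay below every WT heart. Hspa8 fell in GlycoHi by 1.10 ± 0.22 on the log2 scale, to 0.466 times the WT level (adjusted p = 0.0272). In GlycoLo it stood at -1.23 ± 0.22, and this was not called (adjusted p = 0.0858). The authors' deposited table gives the same probe set an adjusted p of 0.027332 in GlycoHi and 0.085688 in GlycoLo. The call in GlycoHi rested on few arrays: the adjusted p became 0.0549 without WT replicate 1, 0.103 without WT replicate 2, 0.0609 without WT replicate 3 and 0.0688 without GlycoHi replicate 2. It was 0.0739 with the 6 arrays of GlycoHi and WT alone. In GlycoLo the difference was called without GlycoHi replicate 2, which enters the variance (adjusted p = 0.0384).

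Hspa1a and Hspa1b encode the stress-inducible HSP70 and are near-identical neighbours, so their probe sets may share signal. Hspa1b measured 10.18, 7.06 and 8.69 in GlycoHi hearts, 8.60, 8.27 and 8.68 in GlycoLo hearts and 10.19, 11.50 and 11.03 in WT hearts. Hspa1a measured 9.35, 7.004 and 8.35 in GlycoHi, 8.28, 7.90 and 8.43 in GlycoLo and 9.31, 10.75 and 10.15 in WT. GlycoLo hearts lay close together and below all WT hearts, whereas GlycoHi hearts spread widely; their replicate 1 reached above the lowest WT heart for Hspa1a and lay just below it for Hspa1b. Hspa1b differed by -2.26 ± 0.61 in GlycoHi (adjusted p = 0.0974) and -2.39 ± 0.61 in GlycoLo (adjusted p = 0.219), or 0.209 and 0.191 times the WT level, and was not called. Hspa1a differed by -1.84 ± 0.50 and -1.87 ± 0.50 (adjusted p = 0.103 and 0.253). Without GlycoHi replicate 1 both genes were called lower in GlycoHi, Hspa1b at -3.03 (adjusted p = 0.0136) and Hspa1a at -2.39 (adjusted p = 0.0324). Without GlycoHi replicate 2 they stood nearer to WT and were not called, Hspa1b at -1.47 (adjusted p = 0.178) and Hspa1a at -1.22 (adjusted p = 0.216). The differences between the lines were 0.13 for Hspa1b, with a 95% interval of -1.21 to 1.47, and 0.03 for Hspa1a. Hspa2, an HSP70 best known from the testis, stood at -0.39 ± 0.11 in GlycoHi and -0.30 ± 0.11 in GlycoLo, with no overlap with WT in either line and no call. In GlycoHi it was called in 1 of 18 alternatives, without GlycoHi replicate 1 (-0.53, adjusted p = 0.0227), and stood at -0.30 without replicate 2 (adjusted p = 0.316), at -0.34 without replicate 3 (adjusted p = 0.294) and at -0.24 with an offset of 50 (adjusted p = 0.137).

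The promoters of this pair show how alike the 2 genes are and where a heat shock element lies. Over the 250 bases before and 50 after the gene start, Hspa1a and Hspa1b differed at 4 of 300 positions in RefSeq (build GRCm38.p6). The heat shock element, the binding motif of HSF1, was searched on both strands as 2 facing units, GAANNTTC or TTCNNGAA, and as 3 units, which contain the 2-unit forms. The window of Hspa1a, chr17:34972107-34972406 on the minus strand, holds 1 match of the 2-unit form, shown in capitals, which begins 104 bases before the start.
Hspa1a: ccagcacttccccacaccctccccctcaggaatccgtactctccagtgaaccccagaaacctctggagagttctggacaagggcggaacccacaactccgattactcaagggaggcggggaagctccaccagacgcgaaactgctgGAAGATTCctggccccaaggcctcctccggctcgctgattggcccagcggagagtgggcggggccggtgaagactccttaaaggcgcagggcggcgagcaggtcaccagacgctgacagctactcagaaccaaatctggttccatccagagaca
Promoters were matched for 32 of the 39 genes; those of Hspa8, Hsp90aa1, Hsp90ab1, Cryab, Hspa9, Manf and Hyou1 were not analysed here. The 2-unit form was found in 9 of 14 cytosolic genes, 0 of 12 ER genes and 3 of 6 mitochondrial genes, against 17.0% of the 27025 genes with a promoter in the table. The 3-unit form was found in Hsph1, Hspd1 and Hspe1, against 0.662% of all genes. The matches of Hspd1 and Hspe1, in both forms, are the same sites in overlapping windows, so these 2 genes are not separate cases. Nor are the near-identical windows of Hspa1a and Hspa1b. In GlycoHi against WT the 9 cytosolic genes with a 2-unit match had a median difference of -0.31 and the 5 without one -0.39. The 5 include the stress-inducible Dnajb1, at -0.82, so this exact search need not sort genes by their control through HSF1. The difference between the 2 sets was not tested.

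The J-domain proteins hand clients to HSP70 and set off its ATPase. Dnajb1, encoding the stress-inducible HSP40, had 9.54, 8.75 and 9.37 in GlycoHi hearts, 9.36, 9.14 and 9.28 in GlycoLo hearts and 9.65, 10.45 and 10.02 in WT hearts. Both lines lay below WT without overlap, by -0.82 ± 0.22 in GlycoHi (adjusted p = 0.0923) and -0.78 ± 0.22 in GlycoLo (adjusted p = 0.268), and neither difference was called. Dnaja1 had 10.72, 10.03 and 10.28 in GlycoHi, 10.46, 10.51 and 10.52 in GlycoLo and 10.64, 10.83 and 11.24 in WT. Its GlycoLo hearts lay below WT and 1 GlycoHi heart overlapped it. The differences were -0.56 ± 0.17 in GlycoHi (adjusted p = 0.150) and -0.41 ± 0.17 in GlycoLo (adjusted p = 0.498). Dnajb4 stood at -0.31 ± 0.10 in GlycoHi and -0.05 ± 0.10 in GlycoLo, uncalled.

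**Figure D2:**
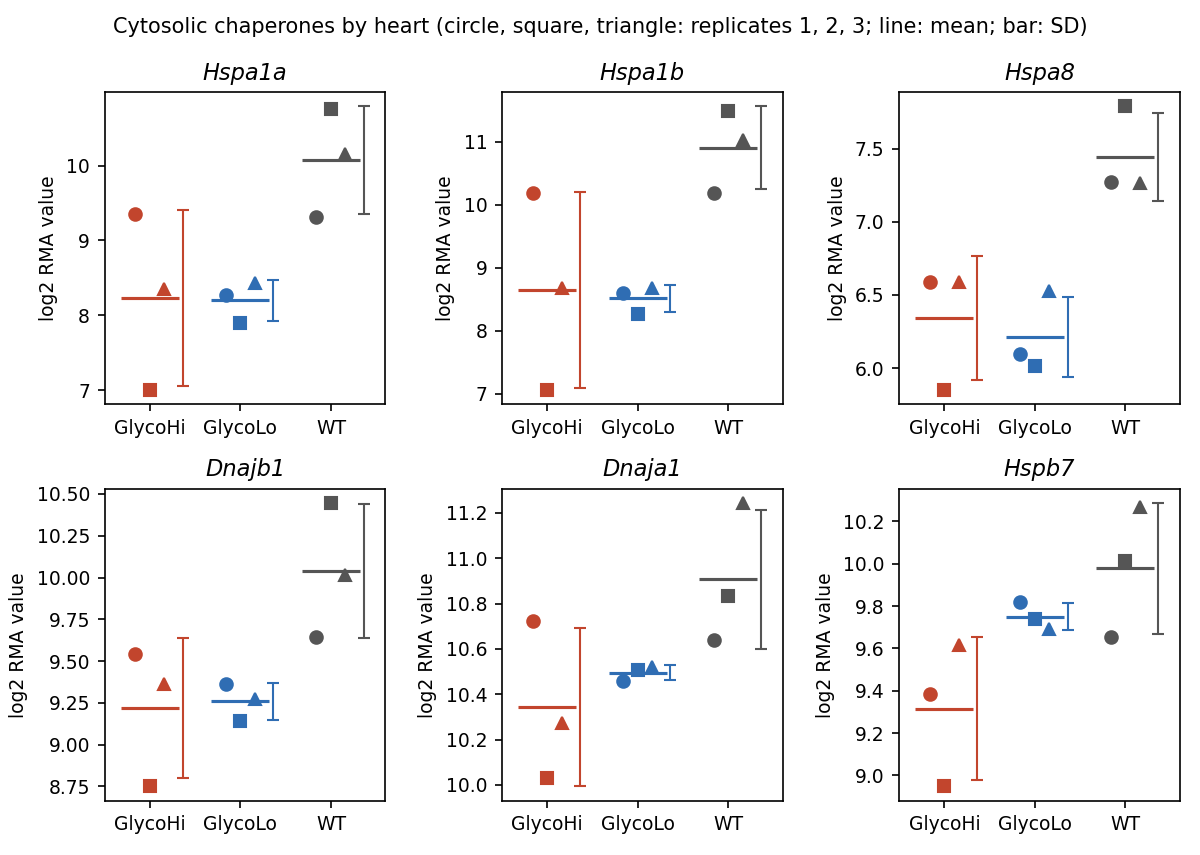
Log2 RMA value (vertical axes, not starting at 0) of 6 cytosolic chaperone genes in each of 9 hearts by genotype, with the mean (line) and SD (bar) of n = 3 mice. The WT hearts are the highest group in every panel, and the square marking GlycoHi replicate 2 is the lowest GlycoHi point in all 6, at 7.06 for Hspa1b.

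The HSP90 genes and the HSP110 genes, whose products exchange the nucleotide of HSP70, were called in no comparison. Hsp90aa1, the inducible HSP90, had 10.95, 10.36 and 10.41 in GlycoHi hearts, 10.51, 10.55 and 10.60 in GlycoLo hearts and 10.52, 10.94 and 11.02 in WT hearts. The 3 groups overlapped, at -0.25 ± 0.16 in GlycoHi (adjusted p = 0.523) and -0.27 ± 0.16 in GlycoLo (adjusted p = 0.631). Hsp90ab1, the HSP90 made at all times, had 12.40, 12.19 and 12.25 in GlycoHi, 12.22, 12.20 and 12.32 in GlycoLo and 12.13, 12.28 and 12.41 in WT. Its difference from WT was 0.01 in GlycoHi (95% interval -0.18 to 0.20) and -0.02 in GlycoLo (-0.21 to 0.17). Hsph1, the inducible HSP110, stood at -0.33 ± 0.23 and -0.34 ± 0.23. Hspa4 stood at -0.04 ± 0.12 and 0.10 ± 0.12, and Hspa4l at -0.37 ± 0.13 in GlycoHi and 0.00 ± 0.13 in GlycoLo. The hearts of Hsph1, Hspa4 and Hspa4l overlapped between each line and WT.

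The small heat shock proteins, which hold unfolded protein without using ATP, did not follow one pattern. Hspb7, a partner of filamin in heart muscle, had 9.39, 8.95 and 9.61 in GlycoHi hearts, 9.82, 9.74 and 9.69 in GlycoLo hearts and 9.65, 10.01 and 10.27 in WT hearts. GlycoHi lay below both other genotypes without overlap, at -0.66 ± 0.17 against WT (adjusted p = 0.0898) and -0.43 ± 0.17 against GlycoLo (adjusted p = 0.313). It was called against WT when WT replicate 1 was left out (-0.82, adjusted p = 0.0493) and without dim probe sets (0.0487). It stood nearer to WT and uncalled without WT replicate 3 (-0.52, adjusted p = 0.251) or GlycoHi replicate 2 (-0.48, adjusted p = 0.221). Hspb6, also known as HSP20, stood at -0.02 ± 0.07 in GlycoHi and at -0.23 ± 0.07 in GlycoLo against WT, with the GlycoLo hearts below those of both other genotypes (adjusted p = 0.297 against WT) and no call. Hspb1, encoding HSP25 in the mouse, had 12.27, 12.04 and 12.23 in GlycoHi, 11.97, 12.05 and 12.13 in GlycoLo and 12.02, 12.19 and 12.27 in WT, with all 3 groups overlapping. Hspb8 stood at 0.01 ± 0.09 in GlycoHi and 0.03 ± 0.09 in GlycoLo. Its partner Bag3, which routes clients to autophagy, stood at -0.24 ± 0.08 in GlycoHi, below WT without overlap, and -0.08 ± 0.08 in GlycoLo. Cryab, encoding alpha B-crystallin, is known as an abundant heart protein. Its listed probe set read 2.70, 2.75 and 2.81 in GlycoHi, 2.61, 2.74 and 2.91 in GlycoLo and 2.81, 3.11 and 2.85 in WT, so it carried almost no signal and says little about this gene.

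In the ER list the GlycoHi hearts tended to stand lowest, and no gene was called by limma in any comparison. At an unadjusted p under 0.05, 8 of 14 ER genes were lower in GlycoHi than in WT (7.07% of all probe sets). In GlycoHi against GlycoLo 4 were lower (6.47%), and in GlycoLo against WT 0 differed (9.48%). No ER gene was higher in these comparisons. Hspa5, encoding BiP, the HSP70 of the ER, had 11.41, 11.40 and 11.27 in GlycoHi hearts, 11.52, 11.51 and 11.50 in GlycoLo hearts and 11.58, 11.57 and 11.80 in WT hearts. The 3 genotypes followed each other without overlap, GlycoHi lowest and WT highest. The differences from WT were -0.29 ± 0.08 in GlycoHi (adjusted p = 0.0983) and -0.14 ± 0.08 in GlycoLo (adjusted p = 0.611). In GlycoHi it was called without dim probe sets (adjusted p = 0.0414) and with a trended and robust variance (0.00990). Its adjusted p reached 0.255 without WT replicate 3, where the difference was -0.21, and 0.248 without GlycoHi replicate 3. Hsp90b1, the HSP90 of the ER, had 10.19, 10.02 and 10.01 in GlycoHi, 10.24, 10.19 and 10.21 in GlycoLo and 10.20, 10.27 and 10.41 in WT. Its GlycoHi hearts lay just below WT, at -0.22 ± 0.08 (adjusted p = 0.213).

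The ER lectin chaperones bind sugar chains on new glycoproteins. Canx, encoding calnexin, had 8.73, 8.57 and 8.49 in GlycoHi hearts, 8.91, 8.95 and 8.75 in GlycoLo hearts and 8.91, 8.93 and 8.98 in WT hearts. Its GlycoHi hearts lay below those of both other genotypes, at -0.34 ± 0.08 against WT (adjusted p = 0.0605) and -0.27 ± 0.08 against GlycoLo (adjusted p = 0.157). Canx was called against WT without GlycoHi replicate 1 (-0.41, adjusted p = 0.0489), without dim probe sets (0.0246), with cyclic loess (0.0479), with an offset of 50 (0.0391), with a trended and robust variance (0.0114) and with array weights (0.0496), while its highest adjusted p was 0.174, without GlycoHi replicate 3. Against GlycoLo it was called with the trended and robust variance (adjusted p = 0.0461). Calr, encoding calreticulin, stood at -0.23 ± 0.07 against WT and -0.17 ± 0.07 against GlycoLo, again with no overlap and no call. The trended and robust variance called Calr against WT (adjusted p = 0.0220), while its highest adjusted p was 0.359, without WT replicate 3 (-0.18). Pdia3, the disulfide isomerase that works with these lectins, stood at -0.26 ± 0.09 against WT and -0.28 ± 0.09 against GlycoLo, likewise without overlap. Manf, a secreted protein of ER stress, stood at -0.34 ± 0.11 and -0.29 ± 0.11, and Dnajc3, an ER J-domain protein, at -0.25 ± 0.08 and -0.08 ± 0.08. The other ER genes differed less clearly. Dnajb9, Dnajb11 and Creld2, which ER stress induces, stood at 0.03, 0.01 and 0.01 in GlycoHi against WT. Hyou1, a large relative of BiP, stood at -0.06, and Sdf2l1, a partner of ER J-domain proteins, at -0.17. The disulfide isomerase genes Pdia4 and Pdia6, with dim probe sets, stood at -0.11 and -0.40. In GlycoLo against WT the 14 ER genes lay between -0.24 (Pdia6) and 0.09 (Dnajb11).

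The ER stress response element, the motif of ATF6 with the factor NF-Y, marked this list in sequence. It was searched on both strands as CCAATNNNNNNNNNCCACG and was found in the promoters of 7 of 12 ER genes, 0 of 14 cytosolic genes and 0 of 6 mitochondrial genes, against 0.137% of all 27025 genes. Its matches are set out below on the strand where they read from CCAAT, with the fixed letters in capitals (RefSeq, GRCm38.p6).
Hspa5, chr2:34772025-34772043, plus strand: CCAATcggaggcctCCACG
Calr, chr8:84847075-84847093, plus strand: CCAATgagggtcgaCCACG
Hsp90b1 (farther), chr10:86705638-86705656, minus strand: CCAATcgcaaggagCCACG
Hsp90b1 (nearer), chr10:86705533-86705551, plus strand: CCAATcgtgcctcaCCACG
Canx, chr11:50325800-50325818, minus strand: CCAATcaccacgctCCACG
Pdia6, chr12:17266491-17266509, plus strand: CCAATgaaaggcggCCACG
Dnajc3, chr14:118937827-118937845, plus strand: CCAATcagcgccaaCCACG
Creld2, chr15:88819520-88819538, minus strand: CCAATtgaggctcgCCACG
In Hspa5 the match begins 65 bases before the gene start, and it is shown in capitals in the window chr2:34771840-34772139, plus strand.
Hspa5: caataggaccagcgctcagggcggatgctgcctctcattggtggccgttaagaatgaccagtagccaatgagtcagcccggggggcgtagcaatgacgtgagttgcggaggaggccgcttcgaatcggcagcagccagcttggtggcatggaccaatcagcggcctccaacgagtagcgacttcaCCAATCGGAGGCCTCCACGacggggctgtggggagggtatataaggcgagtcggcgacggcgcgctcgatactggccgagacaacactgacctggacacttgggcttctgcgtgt
Of the 7 genes with a match, 6 stood below WT in GlycoHi and 5 of these did so without overlap, with a median of -0.25; Creld2 was the exception. Of the 5 ER genes with a promoter and no match, 3 stood below WT and 1 did so without overlap, with a median of -0.11. Of all probe sets, 49.9% stood below WT in GlycoHi and 8.49% did so without overlap. Against GlycoLo, 7 of the 7 genes with a match stood lower in GlycoHi, 3 of them without overlap (median -0.15). Of the 5 without a match, 4 stood lower, 2 of them without overlap (median -0.08). The shares of all probe sets were 51.0% and 8.01%. These are descriptions of 12 genes, and the difference between the 2 sets was not tested.

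Of 22 measured genes that sense or clear ER stress, 14 stood above WT in GlycoHi (median 0.05) and 13 in GlycoLo (median 0.02). Of all 45037 probe sets, 22560 stood above WT in GlycoHi and 23582 in GlycoLo. The probe sets of 4 of the 22 genes lay below the array median. Of 23 genes of ER sensors and ER-associated degradation, 22 were measured, and 2 rose in GlycoHi against WT (2.08% of all probe sets were called) while 0 fell. Limma called 0 of the 22 in GlycoLo against WT (0.0844% of all probe sets), and 0 had an unadjusted p under 0.05 (9.48%). Atf6 encodes the ER sensor that becomes a transcription factor. It had 9.24, 9.27 and 9.16 in GlycoHi hearts, 8.68, 8.68 and 8.82 in GlycoLo hearts and 8.72, 8.75 and 8.56 in WT hearts. GlycoHi stood clear above both other genotypes. Atf6 rose in GlycoHi by 0.55 ± 0.07 against WT (adjusted p = 0.00359) and by 0.49 ± 0.07 against GlycoLo (adjusted p = 0.00720). Sel1l, of the ER degradation complex, rose by 0.30 ± 0.06 (adjusted p = 0.0371), a call that was lost on leaving out any single array, with adjusted p between 0.0511 and 0.127, and with the 6 arrays alone (0.0884), cyclic loess (0.0567) and the replicate block (0.0713). Xbp1, the factor that IRE1 activates by splicing, stood at -0.39 ± 0.11 in GlycoHi (adjusted p = 0.122). In the integrated stress response, 6 of 12 measured genes rose in GlycoHi against WT, and 6 against GlycoLo, where 1.08% and 0.957% of all probe sets rose. Against WT they were Asns, which makes asparagine (4.39 ± 0.09), the transcription factor gene Atf5 (2.26 ± 0.07), Trib3 (2.02 ± 0.16), the secreted factor gene Gdf15 (1.91 ± 0.23), Chac1, which degrades glutathione (1.26 ± 0.19), and Ddit3, encoding CHOP (0.59 ± 0.10). With an offset of 50, which shrinks differences at low signals, Asns stood at 2.502 and Trib3 at 0.87, still called. The call of Ddit3 was lost without WT replicate 2 (adjusted p = 0.0621) or GlycoHi replicate 3 (0.0556) and with the 6 arrays alone (0.0532). In GlycoLo against WT limma called 0 of the 12 (0.0844% of all probe sets), and 2 were lower at an unadjusted p under 0.05 (5.07%). The composite element of ATF4 and C/EBP, searched on both strands as TGATGNAA, was found in 0 of the 32 chaperone genes with a promoter. It was found in 4.51% of all genes, a share too low for 0 of 32 to set the chaperones apart. Whether the called genes of the integrated stress response hold it was not examined here.

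**Figure D3:**
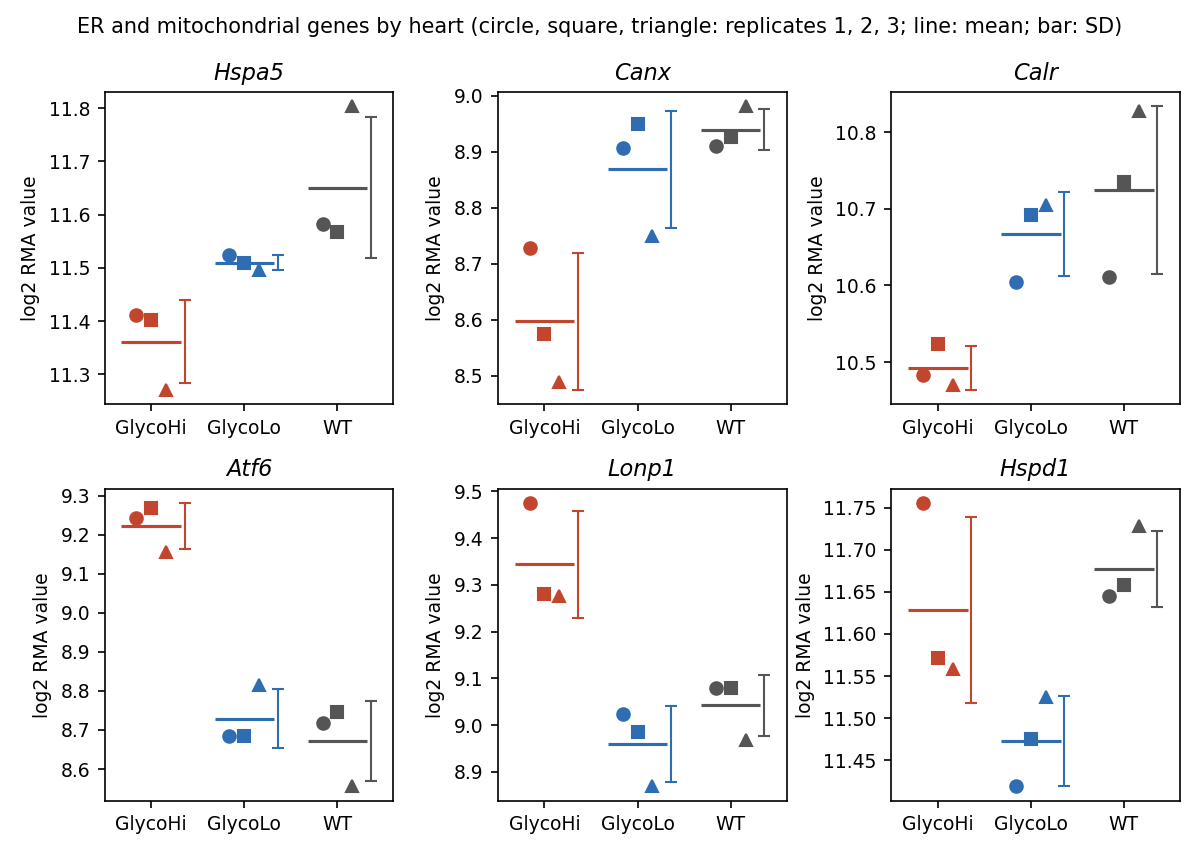
Log2 RMA value (vertical axes, not starting at 0) of 3 ER chaperone genes, the ER sensor gene Atf6 and 2 mitochondrial genes in each of 9 hearts, with the mean (line) and SD (bar) of n = 3 mice. GlycoHi is the lowest group for Hspa5, Canx and Calr and the highest for Atf6 and Lonp1, at 9.16 to 9.27 for Atf6.

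In mitochondria 1 gene was called, a protease, and it stood higher in GlycoHi. Lonp1, encoding the ATP-dependent protease of the matrix, had 9.48, 9.28 and 9.28 in GlycoHi hearts, 9.02, 8.99 and 8.87 in GlycoLo hearts and 9.08, 9.08 and 8.97 in WT hearts. Every GlycoHi heart lay above every other heart. Lonp1 rose in GlycoHi against GlycoLo by 0.38 ± 0.08 (adjusted p = 0.0349), to 1.31 times the level. Against WT it stood at 0.30 ± 0.08 in GlycoHi (adjusted p = 0.0862) and -0.08 ± 0.08 in GlycoLo (adjusted p = 0.779), uncalled. The call between the lines was lost when any single array other than WT replicate 3 was left out. The adjusted p was 0.108, 0.0642 and 0.0762 without GlycoHi replicates 1, 2 and 3, and 0.0703, 0.0898 and 0.134 without GlycoLo replicates 1, 2 and 3. It was 0.0543 and 0.0581 without WT replicates 1 and 2, and 0.0877 with the 6 arrays alone. Clpp, the other matrix protease of the list, stood at -0.13 ± 0.07 between the lines, opposite in sign to Lonp1 and uncalled.

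Hspd1 and Hspe1 encode HSP60 and its lid HSP10, which together fold matrix proteins. Hspd1 had 11.76, 11.57 and 11.56 in GlycoHi hearts, 11.42, 11.47 and 11.53 in GlycoLo hearts and 11.65, 11.66 and 11.73 in WT hearts. GlycoLo lay below both other genotypes without overlap, at -0.20 ± 0.07 against WT (adjusted p = 0.399). Hspe1 had 9.65, 9.42 and 9.48 in GlycoHi, 9.31, 9.31 and 9.51 in GlycoLo and 9.49, 9.54 and 9.50 in WT, with overlapping groups. Its difference from WT was 0.01 ± 0.08 in GlycoHi and -0.13 ± 0.08 in GlycoLo. The 2 genes lie head to head on chromosome 1 and share a promoter, which is why its sequence is shown: a window of Hspd1 on the minus strand and that of Hspe1 on the plus strand have 285 of 300 bases in common. The window of Hspe1 is chr1:55087898-55088197, plus strand, and the capitals mark 2 overlapping matches of the 3-unit heat shock element, the first 89 bases before the start of Hspe1.
Hspe1: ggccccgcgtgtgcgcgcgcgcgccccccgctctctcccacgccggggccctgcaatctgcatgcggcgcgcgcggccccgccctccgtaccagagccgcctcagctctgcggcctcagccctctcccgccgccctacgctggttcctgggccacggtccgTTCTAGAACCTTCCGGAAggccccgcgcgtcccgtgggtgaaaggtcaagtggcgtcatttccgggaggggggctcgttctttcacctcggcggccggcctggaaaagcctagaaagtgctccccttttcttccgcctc
Neither gene was called in any comparison.

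Hspa9, encoding mortalin, the HSP70 that pulls proteins into the matrix, had 6.79, 6.27 and 6.66 in GlycoHi hearts, 6.97, 6.90 and 6.74 in GlycoLo hearts and 6.86, 6.97 and 6.83 in WT hearts. GlycoHi lay below WT without overlap and overlapped GlycoLo, at -0.31 ± 0.12 and -0.30 ± 0.12 (adjusted p = 0.253 and 0.313). Its nucleotide exchange factor Grpel1 stood at -0.04 ± 0.07 in GlycoHi and 0.08 ± 0.07 in GlycoLo against WT. Trap1, the HSP90 of mitochondria, stood at 0.08 ± 0.08 in GlycoHi and 0.11 ± 0.08 in GlycoLo. Among 16 further genes of mitochondrial import and proteolysis limma called 0 in any comparison. Of all probe sets it called 2.08% in GlycoHi and 0.0844% in GlycoLo against WT, and 1.71% between the lines. At an unadjusted p under 0.05, 4 of the 16 were lower in GlycoHi against WT (7.07% of all probe sets) and 5 lower in GlycoHi against GlycoLo (6.47%). In GlycoLo against WT 1 was lower and 1 higher, a share near the 5.07% and 4.41% of all probe sets. The 3 with the smallest F-test p were Clpx, the unfoldase of the Clpp protease, at -0.19 ± 0.06 in both lines, Timm44, at -0.24 ± 0.08 in GlycoHi, and Htra2, at -0.17 ± 0.08 in GlycoHi.

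The regulators and co-chaperones of the cytosol were measured for 26 of 27 genes. Hsf1 itself stood at 0.01 ± 0.09 in GlycoHi and 0.08 ± 0.09 in GlycoLo. Of the 26, Cct3, a subunit of the TRiC chaperonin with a probe set at the 46.8th percentile, fell by 0.55 ± 0.11 in GlycoHi (adjusted p = 0.0265), and 0 rose. Of all probe sets, 1.00% were called lower and 1.08% higher in GlycoHi. Leaving out 1 array ended the call of Cct3 for WT replicate 1 (adjusted p = 0.0837), WT replicate 2 (0.0649), WT replicate 3 (0.0764), GlycoHi replicate 1 (0.0976) and GlycoHi replicate 2 (0.0856). With an offset of 50 its difference shrank to -0.17, still called (adjusted p = 0.0415). In GlycoLo 0 were called (0.0844% of all probe sets), with 4 higher and 0 lower at an unadjusted p under 0.05 (4.41% and 5.07%). The median difference of these 26 genes was 0.04 in GlycoHi and 0.07 in GlycoLo, on the other side of 0 from the cytosolic chaperones. Of their probe sets, 5 lay below the array median, with Cct8 and Cct4 lowest at percentiles 1.6 and 7.1, so their differences rest on dim signals. Hspb3, a small heat shock protein of muscle, stood highest among them at 0.29 ± 0.07 in GlycoHi (adjusted p = 0.0809) and 0.42 ± 0.07 in GlycoLo (adjusted p = 0.0858). Bag1, an exchange factor of HSP70, stood at -0.28 ± 0.06 between GlycoHi and GlycoLo (adjusted p = 0.0525).

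Hearts of 1 genotype differed from each other in these genes, in GlycoHi and WT most of all in the cytosolic ones. The median SD of the 18 cytosolic genes was 0.26 among GlycoHi, 0.08 among GlycoLo and 0.18 among WT hearts, where all probe sets had medians of 0.09 in each genotype. GlycoHi replicate 1 was the highest GlycoHi heart for 31 of 39 genes and for all 7 mitochondrial ones, against 38.1% of the probe sets above the array median. GlycoHi replicate 2 was the lowest for 15 of the 18 cytosolic genes, against 32.3%. WT replicate 1 was the lowest WT heart for 15 of the 18 cytosolic genes, against 27.8%. WT replicate 3 was the highest WT heart for 13 of the 14 ER genes, against 26.1%. Members of a compartment shared these high and low hearts, so they are not independent of each other as evidence.

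**Figure D4:**
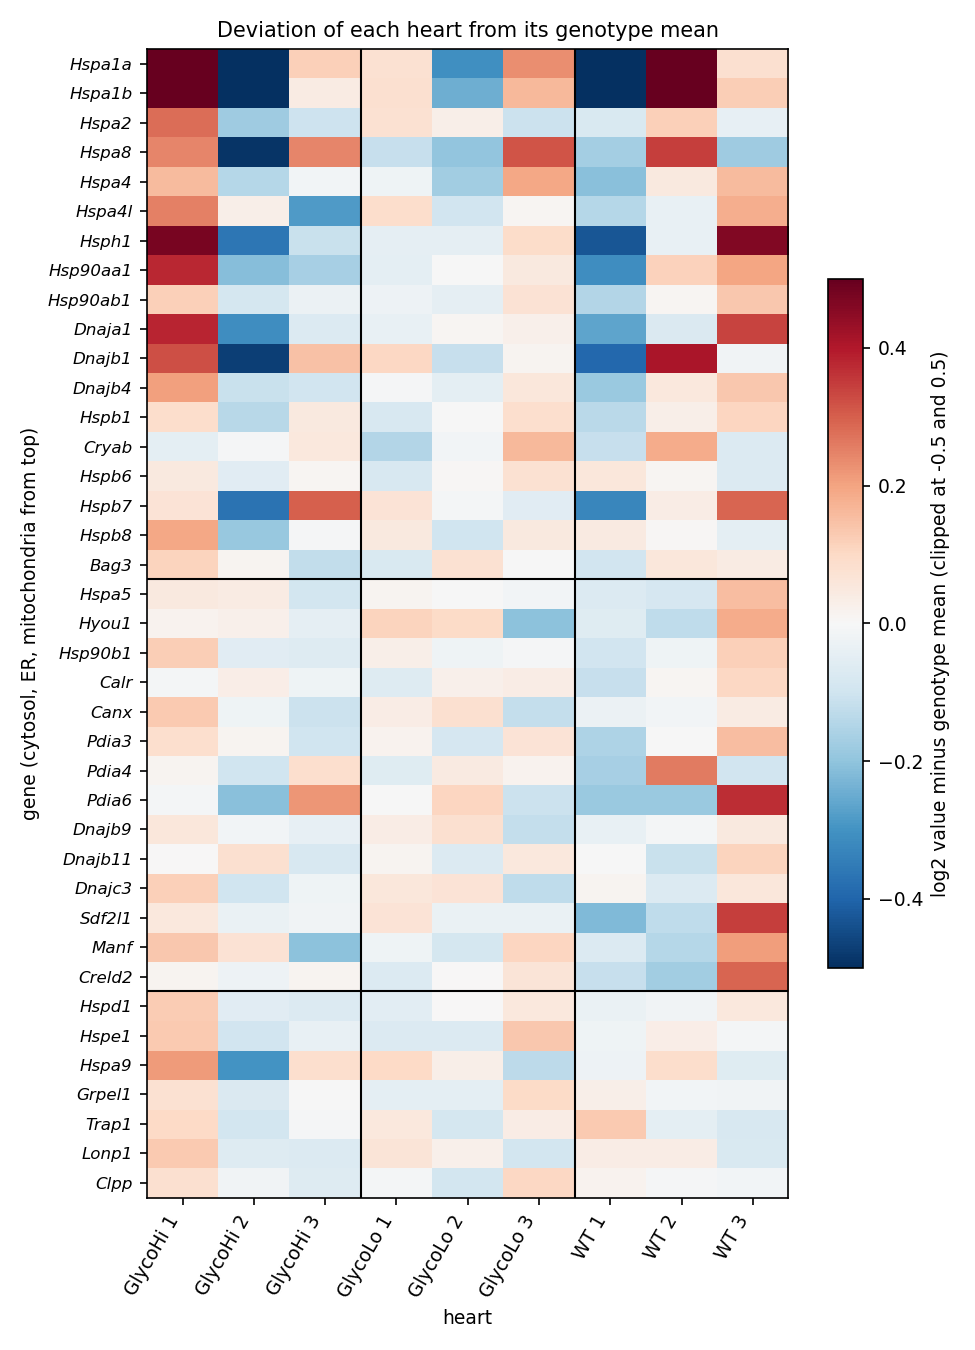
Deviation of each heart from its genotype mean (colour, log2, clipped at -0.5 and 0.5) for 39 chaperone genes (rows) in 9 hearts (columns, GlycoHi, GlycoLo and WT). GlycoHi replicate 1 is red for most genes, being the highest for 31 of 39, and WT replicate 3 is red for 13 of 14 ER genes.

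By Pearson correlation over the 9 arrays, among 9716 candidate genes, Hspa8 was most like Sertad1 (r = 0.966), Nrarp (0.962), Ivd (0.945), Hspa1a (0.935) and Dnajb1 (0.933). Among the genes most like Hspa5 were Hand2 (0.962), Xbp1 (0.951), Noct (0.942) and Inafm2 (0.937). The points share genotype and array, so these are descriptions; 2 of the 5 genes nearest Hspa8 are cytosolic chaperones of the set.

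Other genes moved beside the cytosolic chaperones. Of 11 immediate early genes, which tissue handling can induce, 6 fell in GlycoHi and 1 in GlycoLo against WT, and 0 rose. Of all probe sets, 1.00% were called lower and 1.08% higher in GlycoHi, and 0.0688% and 0.0155% in GlycoLo. Their summed linear level was 3167 to 3982 in GlycoHi hearts, 3782 to 4822 in GlycoLo hearts and 5350 to 6625 in WT hearts, without overlap between either line and WT. Set beside the summed cytosolic chaperones, heart by heart, GlycoHi replicate 1 had the lowest immediate early sum of its genotype (3167) and the highest chaperone sum (27464), and GlycoLo replicate 1 the highest immediate early sum (4822) and the lowest chaperone sum (22728). In WT the order was shared: replicate 1 was lowest in both sums (5350 and 25143) and replicate 2 highest in both (6625 and 30856). The chaperone sum is linear, so the brightest genes, Hsp90ab1, Hspb6 and Hspb1, weigh most in it, and none of them was called. The 4 measured white adipocyte markers summed to 123 to 179 in GlycoHi, 127 to 242 in GlycoLo and 181 to 648 in WT, with the top value in WT replicate 3, and none was called. Of the 6 cardiomyocyte markers, Myh6 fell in GlycoHi by 0.70 ± 0.10 (adjusted p = 0.00444), and their sum was 55005 to 55085 in GlycoHi, 55428 to 56615 in GlycoLo and 56150 to 56478 in WT. The part of these genes in the chaperone differences was not tested. The 3′ minus 5′ difference of the actin control probe sets, a sign of RNA integrity, was 0.82 to 0.97 in GlycoHi, 0.89 to 0.92 in GlycoLo and 0.92 to 1.00 in WT.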

How the data were processed

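The authors deposited log2 values for 45101 probe sets on 9 arrays, made by RMA and analysed with limma per the submitters' processing notes, with no settings named. The authors also deposited a table of these log2 values, equal within 8.9e-16, with gene symbols and the authors' log2 differences, p-values and adjusted p-values. That table lists 1 probe set per symbol, so other probe sets of a chaperone gene were not used here. The members and lists were chosen with earlier results of these data known. After 64 control probe sets were left out, 1 linear model with 3 genotype means was fitted to 45037 probe sets with limma 3.58.1 in R 4.3.3 (empirical Bayes, 6 residual and 4.66 prior degrees of freedom) and p-values were adjusted over all of them (Benjamini-Hochberg) in each comparison. No member counts were tested as a set. All 39 members were named, with values per heart for those called, those differing by over 0.5 and the lead chaperone of each compartment; of the companion lists, called genes and (outside the integrated stress response) up to 3 with the smallest F-test p were named. Hsf1, Myh6 and the per-heart values of Canx and Atf6 were chosen after their values were seen. Some correlated genes and markers are not reported here. The fit was tested on simulated data. An exact permutation test of a single gene reaches p = 0.1 at best in 3 against 3 mice, and the number of arrays sets the precision. Promoter windows came from RefSeq tables (GRCm38.p6); 7 members had none there. Figures were drawn in Python 3.11.15 (matplotlib 3.10.9). Alternatives were array weights, a replicate block, an added offset of 50, cyclic loess, an equal median on every array, a variance fitted robustly with a trend, no dim probe sets, 6 arrays alone, an adjusted p under 0.1 and leaving out each array.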

Additional observations from a re-analysis of the deposited data

Results flagged for a closer look

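Lonp1 differed from WT differently in the 2 transgenic lines, by the direct limma test of GlycoHi against GlycoLo (log2 difference 0.38 ± 0.08, adjusted p = 0.0349). Its mean was 9.34 ± 0.11 in GlycoHi, 8.96 ± 0.08 in GlycoLo and 9.04 ± 0.07 in WT (SD, n = 3), and the difference lay between 0.32 and 0.42 under 18 alternatives. It was not called in 9 of the 18, with an adjusted p of up to 0.134, and the trended and robust variance called Canx, Hspb6 and Pdia3 between the lines too.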

How the results depend on the processing

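With 3 mice per genotype the counts of called chaperones changed with the processing; their causes were not tested beyond what each alternative changes. In GlycoLo against WT the count was 0, and 1 without dim probe sets, at an adjusted p under 0.1 (Hspa8 both times) or with a trended and robust variance (Hspb6); leaving out single arrays gave 0 to 1. In GlycoHi against WT the count of 1 became 0 with the 6 arrays alone, 5 without dim probe sets (with Canx, Hspa5, Hspb7 and Lonp1), 2 with cyclic loess or array weights (with Canx), 3 with an offset of 50 (with Canx and Lonp1), 6 with a trended and robust variance (with Bag3, Calr, Canx, Hspa5 and Lonp1) and 7 at an adjusted p under 0.1, and 0 to 5 without single arrays; 5 was reached without GlycoHi replicate 1, and 0 without WT replicate 2 or 3 or GlycoHi replicate 2. In GlycoHi against GlycoLo the count of 1 became 0 with the 6 arrays alone and 4 with a trended and robust variance (with Canx, Hspb6 and Pdia3), and 0 to 1 without single arrays. The F-test count of 1 became 2 with the replicate block, cyclic loess or an offset of 50, 3 without dim probe sets or at an adjusted p under 0.1 and 6 with a trended and robust variance, and 0 to 4 without single arrays; it was not run on 6 arrays, which hold 2 genotypes. Leaving out dim probe sets also reduces how many are adjusted over. The share of all probe sets called moved too. In GlycoHi against WT it went from 2.08% to 7.46% without dim probe sets and 4.16% with a trended and robust variance. It was 3.60% with an offset of 50, 3.68% at an adjusted p under 0.1 and 1.26% without GlycoHi replicate 1. In GlycoHi against GlycoLo it went from 1.71% to 3.43% with that variance. In GlycoLo against WT it was 0.675% without dim probe sets and 0.568% with that variance. The replicate block left the counts of 0, 1 and 1 in the pairwise comparisons as they were. The genotypes carry the same replicate numbers, to which no label gives a meaning; deviations from the genotype means correlated at -0.02 to 0.12 between arrays of 1 number, and for 3 of 9 arrays the own number gave the highest correlation in each other genotype. Of 117 differences of single members (39 genes in 3 comparisons), 100 kept their side of the threshold under every alternative, 14 of 2097 values lost a call, 31 gained one and 0 turned sign while called. No other probe set per gene could be tried, since the authors' table names 1.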
